A study of Saccharomyces cerevisiae with 27 samples.

Results

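The genes described here carry IMP to GMP in the yeast Saccharomyces cerevisiae: IMD2, IMD3 and IMD4, which encode IMP dehydrogenase, and GUA1, which encodes GMP synthase. They are 4 of the 5995 genes listed for each library, found by their gene IDs. The set was built around IMD2, which was picked because LCY001 had far less of it than BY4741 on glucose. In that contrast IMD2 had the second largest fall (log2 fold change -2.41) among genes that averaged at least 5 CPM (library counts scaled to counts per 1e6, with TMM factors) over the 6 libraries, after YLR156W (-3.31), and AGA1 came next (-1.26). Ranked over all genes tested, IMD2 stood at 5, because 3 genes with averages of at most 0.107 CPM in BY4741 stood ahead of it, and SPL2 (-1.93) stood just behind. The set was thus chosen by those glucose counts, which are given as a description, and so is every contrast that reuses the LCY001 or BY4741 libraries from glucose.

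Polyadenylated RNA was sequenced from 3 strains on 3 carbon sources, with 3 libraries in each of 9 groups, each library from a separate colony per the labels. LCY002 carries a centromeric HIS3 plasmid with 40 added genes, which act in galactose use, in glycolysis and in making ergosterol, and LCY001 carries a centromeric HIS3 plasmid without the array. BY4741, the parent, carries no plasmid, and all 3 strains have the his3Δ1, leu2Δ0, met15Δ0 and ura3Δ0 alleles. None of IMD2, IMD3, IMD4 and GUA1 is on the array. Per the labels, all strains were started in synthetic medium lacking histidine, although BY4741 has the his3Δ1 allele and no HIS3 plasmid. They were then diluted to an OD600 of 0.1 in glucose, galactose or ethanol/glycerol and collected near 1.0. The sources used here do not say whether the last cultures held histidine. In every contrast against BY4741, the strain and any difference in histidine supply therefore cannot be told apart.

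IMP is the common precursor of both purine nucleotides. IMP dehydrogenase oxidises it to XMP in the rate-limiting step of guanine nucleotide synthesis, GMP synthase aminates XMP to GMP, and kinases then make GTP, which cells spend on RNA, translation and signalling. Yeast has several IMP dehydrogenase genes, and IMD2 is the one known for its response to guanine nucleotides: its mRNA is made when they run short, through a change in the start site used by RNA polymerase II, and its enzyme resists the inhibitor mycophenolic acid.

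The 3 IMP dehydrogenase genes are close copies. A stretch of their coding sequence is shown because reads there can tell IMD2 from IMD3 and IMD4, which are nearly alike in it. Capitals mark the 14 bases at which IMD2 differs from both IMD3 and IMD4. The stretches lie at chrVIII:555176-555235 on the plus strand (IMD2), chrXII:1003337-1003396 on the plus strand (IMD3) and chrXIII:162926-162985 on the minus strand (IMD4) of build R64.
IMD2: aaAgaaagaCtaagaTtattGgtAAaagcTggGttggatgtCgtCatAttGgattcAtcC
IMD3: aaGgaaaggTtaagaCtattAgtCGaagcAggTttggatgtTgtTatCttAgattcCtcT
IMD4: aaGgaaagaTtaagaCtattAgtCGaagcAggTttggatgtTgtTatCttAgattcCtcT
Over the whole coding sequences IMD2 and IMD3 were identical at 88.9% of aligned bases, IMD3 and IMD4 at 82.2%, and IMD2 and IMD4 at 79%. Of all 50-base windows of IMD2, 8.01% also occurred in IMD3 and 0 in IMD4, while 0 of its 100-base windows occurred in either. IMD3 and IMD4 share a run of 139 bases, 7.03% of the 50-base windows of IMD3 and 2.72% of its 100-base windows. In the genome, 29.1% of the 50-base windows of IMD2 occurred on chrI:227854-229274, among them 3.41% that also occurred in IMD3, near the site of IMD1, a copy regarded as a pseudogene in the reference strain. The files list no gene there, so reads from that locus cannot be told apart from IMD2 reads in these windows. The authors' expected counts, which divide shared reads among copies by estimate, were whole numbers for IMD2 in 27 of 27 libraries and for IMD3 and IMD4 in 25 of 27.

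The annotated coding region of IMD2 (YHR216W) is chrVIII:554396-555967, 6676 bases from the right end of the chromosome. IMD3 (YLR432W) is chrXII:1002557-1004128, IMD4 (YML056C) is chrXIII:162194-164176 with an intron of 408 bases, and GUA1 (YMR217W) is chrXIII:701790-703367. The region upstream of IMD2 holds the start sites that respond to guanine nucleotides, so part of it is shown beside that of IMD3. The windows of 200 bases begin 310 bases before the start codon, with TATAAA and TATATA in capitals. They end 111 bases before the start codon, so any start site closer to it lies outside them. The windows are chrVIII:554086-554285 and chrXII:1002247-1002446, both on the plus strand.
IMD2: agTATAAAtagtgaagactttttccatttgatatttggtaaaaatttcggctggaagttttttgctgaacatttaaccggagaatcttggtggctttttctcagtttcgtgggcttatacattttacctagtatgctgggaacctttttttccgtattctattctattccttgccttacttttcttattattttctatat
IMD3: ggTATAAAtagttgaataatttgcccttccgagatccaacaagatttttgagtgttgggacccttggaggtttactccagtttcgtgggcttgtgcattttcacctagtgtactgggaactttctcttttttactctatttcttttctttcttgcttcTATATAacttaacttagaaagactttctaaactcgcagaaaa
Both windows hold TATAAA with its first base 308 bases before the start codon, and their longest shared run is 15 bases. TATAAA was found, on either strand, in 33% of 5979 windows of the same position upstream of annotated genes. The window of IMD4 holds it at 204 bases and that of GUA1 at 137 bases before the start codon. TGACTC, the core of the sites known for the activators Gcn4 and Bas1, was found on either strand in 6.02% of the windows and, among these 4 genes, in that of GUA1. These are matches of letters, and the RNA counts do not show which start site was used.

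Library totals ran from 14484850 to 16219260 expected counts, so 3 counts in the smallest library equal 0.207 CPM, a limit that covers counting error. The plasmid marker HIS3 averaged 438 to 653 CPM in the LCY002 groups, 1052 to 1496 CPM in the LCY001 groups and 27.9 to 46.8 CPM in the BY4741 groups, while LEU2, URA3 and MET17 had 0 counts in all 27 libraries. In ethanol/glycerol, replicate 3 of BY4741 stood apart from the other 2 BY4741 libraries: it was the highest for all 4 genes, and a list of 20 ribosome biogenesis genes had a median of 0.27 on the log2 scale above the mean of the other 2. Results in ethanol/glycerol against BY4741 are given with and without it where it ends a call or turns a direction, and for the 4 genes. The replicates of LCY001 in galactose were also less alike than most, with 2.04% of genes over 1.5-fold apart between libraries, against 1.67% in BY4741 in ethanol/glycerol and less in the other 7 groups. Leaving out 1 of the libraries compared gave 1746 to 2220 genes called for LCY001 against BY4741 in galactose, and no call of the 4 genes changed there. All 4 genes passed the filter on low counts, as did 5692 genes in all.

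IMD2 changed more across the 9 groups than nearly any other gene. Its group means ran from 2.9 CPM in LCY002 in ethanol/glycerol to 335 CPM in BY4741 in glucose, a span of 116-fold, which was the 21st largest among 5434 genes that averaged at least 5 CPM and whose median span was 1.66-fold. IMD4 spanned 5.06-fold, IMD3 2.75-fold and GUA1 2.35-fold. The contrast that chose IMD2 contains its top group, so its place in this ranking is a description.

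**Figure D1:**
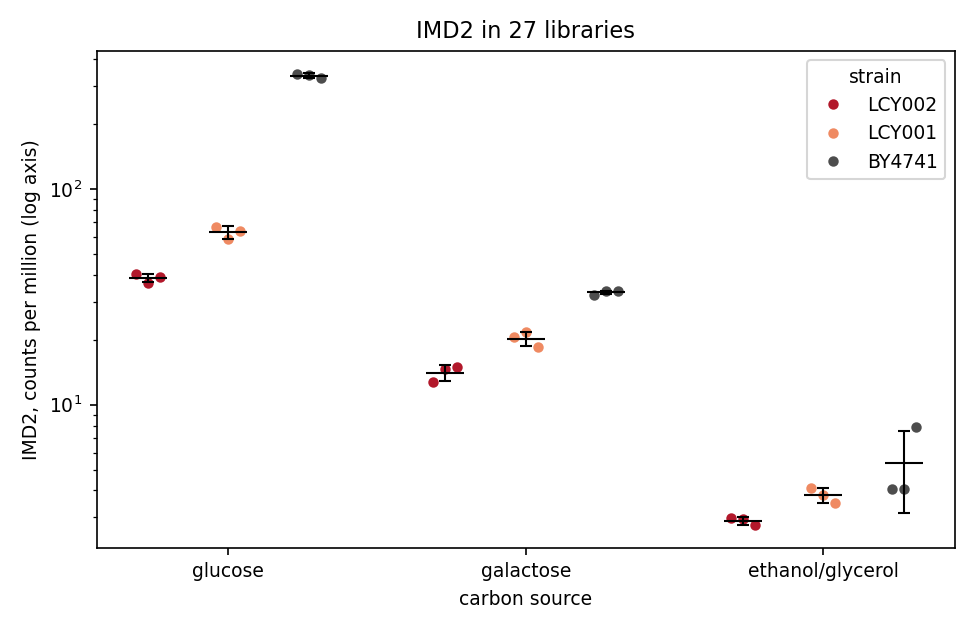
IMD2 in each of the 27 libraries, in CPM on a log axis, by carbon source and strain; points are libraries, and horizontal lines with bars are the mean ± SD of 3. Within each carbon source the means rise in the order LCY002, LCY001, BY4741, and every group in glucose lies above every group in ethanol/glycerol.

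In glucose, IMD2 had 40.2, 36.7 and 39.3 CPM in the 3 LCY002 libraries. The LCY001 libraries had 66.7, 58.4 and 64.2 CPM, against 343, 337 and 326 CPM in the BY4741 libraries. The 3 strains did not overlap. IMD2 was thus 5.32-fold lower in LCY001 than in BY4741 (log2 fold change -2.41 ± 0.08, SE), 8.66-fold lower in LCY002 than in BY4741 (-3.11 ± 0.09) and 1.63-fold lower in LCY002 than in LCY001 (-0.70 ± 0.09).

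In galactose the same gene had 12.7, 14.6 and 14.9 CPM in LCY002. It had 20.5, 21.7 and 18.6 CPM in LCY001, against 32.4, 33.5 and 33.6 CPM in BY4741. The strains again stood in the same order without overlap. These libraries took no part in choosing the gene, and here the differences could be tested. IMD2 was lower in LCY001 than in BY4741 by 1.64-fold (log2 fold change -0.71 ± 0.10, SE, edgeR adjusted p = 4.92e-06), lower in LCY002 than in LCY001 by 1.44-fold (-0.53 ± 0.11, adjusted p = 7.06e-04) and lower in LCY002 than in BY4741 by 2.36-fold (-1.24 ± 0.11, adjusted p = 7.97e-10). The strain differences in galactose were thus in the direction that was already seen in glucose, and the fold between LCY001 and BY4741 was 1.64 in galactose beside 5.32 in glucose; this difference between carbon sources was not tested, since the glucose libraries chose the gene.

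In ethanol/glycerol IMD2 had its lowest counts, 41 to 126 per library. It had 45, 45 and 41 counts (2.98, 2.96 and 2.76 CPM) in LCY002. It had 65, 59 and 55 counts (4.11, 3.83 and 3.50 CPM) in LCY001, against 66, 65 and 126 counts (4.08, 4.06 and 7.87 CPM) in BY4741. LCY002 lay below both other strains without overlap, while LCY001 and BY4741 overlapped. IMD2 was lower in LCY002 than in BY4741 (log2 fold change -0.88 ± 0.20, SE, edgeR adjusted p = 4.15e-04), and without replicate 3 of BY4741 it was lower by less (-0.49 ± 0.15, adjusted p = 0.0135). The differences between LCY002 and LCY001 (-0.39 ± 0.21, adjusted p = 0.11) and between LCY001 and BY4741 (-0.48 ± 0.18, adjusted p = 0.0882) did not pass the test. The second of these was -0.09 ± 0.14 (adjusted p = 0.744) without replicate 3 of BY4741, while leaving out either other BY4741 library there gave -0.65 and passed (adjusted p = 0.0292 without replicate 1 and 0.0289 without replicate 2). In RNA from whole cultures, fewer cells with the transcript and less of it per cell cannot be told apart.

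IMD2 also differed between carbon sources in each strain. In ethanol/glycerol against galactose it was 4.84-fold lower in LCY002 (log2 fold change -2.28 ± 0.16, SE, edgeR adjusted p = 3.23e-12), 5.3-fold lower in LCY001 (-2.41 ± 0.14, adjusted p = 1.13e-13) and 6.21-fold lower in BY4741 (-2.64 ± 0.13, adjusted p = 1.11e-15). In LCY002, whose glucose libraries did not enter the choice, IMD2 was also 2.75-fold lower in galactose than in glucose (-1.46 ± 0.11, adjusted p = 2.15e-11) and 13.3-fold lower in ethanol/glycerol than in glucose (-3.74 ± 0.14, adjusted p = 3.3e-18). For the other 2 strains the contrasts with glucose are a description: galactose stood 3.11-fold below glucose in LCY001 and 10.1-fold below it in BY4741, and ethanol/glycerol stood 16.5-fold and 62.8-fold below it in the same 2 strains.

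IMD3, IMD4 and GUA1 went the same way with carbon source, by less. All 4 genes were lower in ethanol/glycerol than in galactose in LCY002, LCY001 and BY4741, where 77%, 71.6% and 73.1% of all genes tested were called in either direction and 40.4%, 36.3% and 36% were called lower. All 4 were likewise lower in LCY002 in galactose than in glucose (60.1% of all genes called, 26.4% lower) and in ethanol/glycerol than in glucose (83.5% called, 40.4% lower). In ethanol/glycerol against galactose, IMD4 was lower by -1.23 ± 0.08 on the log2 scale in LCY002 (edgeR adjusted p = 4.51e-13), -0.31 ± 0.08 in LCY001 (adjusted p = 9.14e-04) and -0.61 ± 0.08 in BY4741 (adjusted p = 1.49e-07). IMD3 was at -0.49, -0.29 and -0.40 in LCY002, LCY001 and BY4741, and GUA1 was at -0.46, -0.21 and -0.57, with adjusted p from 9.56e-09 to 0.0116. LCY002 in ethanol/glycerol against glucose gave -0.88 for IMD3, -1.74 for IMD4 and -1.01 for GUA1. Groups did not overlap for any of the 4 genes in these 5 contrasts. For ethanol/glycerol against galactose, 42.1% of all genes in LCY002, 36.6% in LCY001 and 36.1% in BY4741 were likewise lower without overlap. Against glucose in LCY002 the share was 29.5% for galactose and 41% for ethanol/glycerol.

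**Figure D2:**
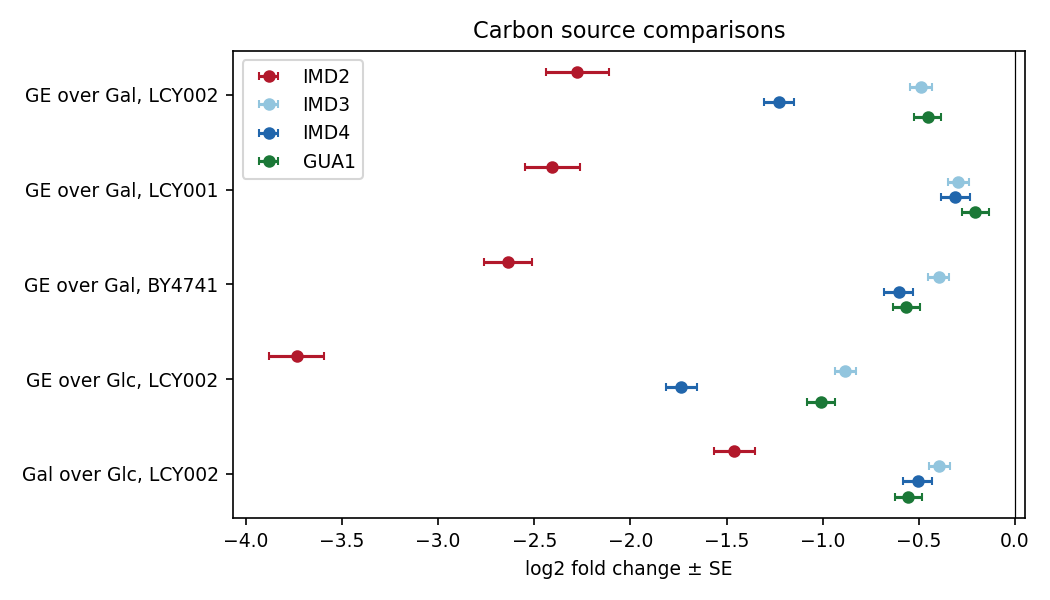
Log2 fold changes between carbon sources (± SE) for the 4 genes in the 5 contrasts that were tested, with GE for ethanol/glycerol, Gal for galactose and Glc for glucose. All points lie below 0; IMD2 is farthest from 0 in each contrast, down to -3.74, and IMD4 stands apart from IMD3 and GUA1 in LCY002 in ethanol/glycerol.

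IMD3, the closest copy of IMD2 among the listed genes, was the steadier of the pair. In glucose it had 499, 511 and 517 CPM in LCY002. In LCY001 it had 435, 440 and 466 CPM, against 771, 759 and 745 CPM in BY4741. BY4741 stood above both other strains, and LCY002 above LCY001, without overlap on this scale, though LCY002 and LCY001 overlapped in TPM. The log2 fold change was -0.76 ± 0.05 (SE) for LCY001 against BY4741 and 0.19 ± 0.05 for LCY002 against LCY001, both as a description.

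In galactose IMD3 had 376, 396 and 390 CPM in LCY002 and 408, 383 and 379 CPM in LCY001, against 432, 444 and 458 CPM in BY4741. The 2 plasmid strains overlapped and both lay below BY4741. IMD3 was lower than in BY4741 in LCY001 (log2 fold change -0.19 ± 0.05, SE, edgeR adjusted p = 0.0075) and in LCY002 (-0.20 ± 0.06, adjusted p = 0.00529). Between LCY002 and LCY001 the difference was -0.01 ± 0.06 (adjusted p = 0.913), with an interval of 2 SE either way from -0.12 to 0.10.

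In ethanol/glycerol IMD3 had 292, 278 and 258 CPM in LCY002 and 320, 308 and 327 CPM in LCY001, against 317, 318 and 379 CPM in BY4741. LCY002 lay below the other 2 strains, which overlapped. IMD3 was lower in LCY002 than in LCY001 (-0.20 ± 0.06, edgeR adjusted p = 0.00258) and than in BY4741 (-0.29 ± 0.06, adjusted p = 5.98e-05), the second being -0.20 without replicate 3 of BY4741 (adjusted p = 9.11e-04). Between LCY001 and BY4741 it was -0.09 ± 0.06 (adjusted p = 0.329).

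IMD4, the copy with an intron, behaved like IMD3 in glucose and galactose and unlike it in ethanol/glycerol. In ethanol/glycerol it had 146, 146 and 143 CPM in LCY002. It had 281, 247 and 293 CPM in LCY001, against 222, 228 and 303 CPM in BY4741. The LCY002 libraries lay far below all 6 others and within 3 CPM of each other, while LCY001 and BY4741 overlapped.

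IMD4 was therefore 1.88-fold lower in LCY002 than in LCY001 in ethanol/glycerol (log2 fold change -0.91 ± 0.08, SE, edgeR adjusted p = 8.51e-10) and 1.73-fold lower than in BY4741 (-0.79 ± 0.08, adjusted p = 6.76e-09), the second being -0.63 ± 0.06 without replicate 3 of BY4741 (adjusted p = 5.66e-10). Between LCY001 and BY4741 it was 0.12 ± 0.08 (adjusted p = 0.332), and 0.28 ± 0.06 without that library (adjusted p = 7.43e-04). In this comparison of LCY002 with LCY001, 59.8% of all genes tested were called and 30.4% were called lower. In galactose IMD4 had 340, 327 and 354 CPM in LCY002 and 337, 354 and 325 CPM in LCY001, and the difference was 0.01 ± 0.08 (adjusted p = 0.959; interval of 2 SE either way -0.15 to 0.16), with its sign turning under other scalings. The change between the 2 carbon sources was tested directly: the fold of LCY002 over LCY001 was lower in ethanol/glycerol than in galactose by -0.92 ± 0.11 on the log2 scale (edgeR adjusted p = 4.92e-07), and that of LCY002 over BY4741 by -0.62 ± 0.11 (adjusted p = 5.93e-05). Of all genes, 43.6% were called in the first of these tests and 44.7% in the second. The same test of LCY001 over BY4741, in which 18.3% of all genes were called, gave 0.30 ± 0.11 for IMD4 (edgeR adjusted p = 0.0606) and called GUA1 (0.36 ± 0.10, adjusted p = 0.0145). Without replicate 3 of BY4741 in ethanol/glycerol, all 4 genes were called higher in that test, as were 9.81% of all genes. Ribosome biogenesis genes moved in the same comparison, since all 20 of a list of 20 were lower in LCY002 than in LCY001 in ethanol/glycerol with a median log2 fold change of -0.43, against a median of 0.00 over all genes; their part in the result was not tested.

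Against BY4741 in galactose (370, 402 and 374 CPM), IMD4 did not pass the test in LCY002 (-0.17 ± 0.08, edgeR adjusted p = 0.0905) or in LCY001 (-0.17 ± 0.08, adjusted p = 0.0764), although the groups did not overlap. In glucose IMD4 had 480, 489 and 481 CPM in LCY002 and 441, 459 and 450 CPM in LCY001, against 766, 722 and 712 CPM in BY4741. BY4741 was again the highest strain; LCY001 against BY4741 was -0.71 ± 0.08 on the log2 scale, and LCY002 against LCY001 was 0.10 ± 0.08, a sign that flips to -0.002 with total counts as the scale.

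**Figure D3:**
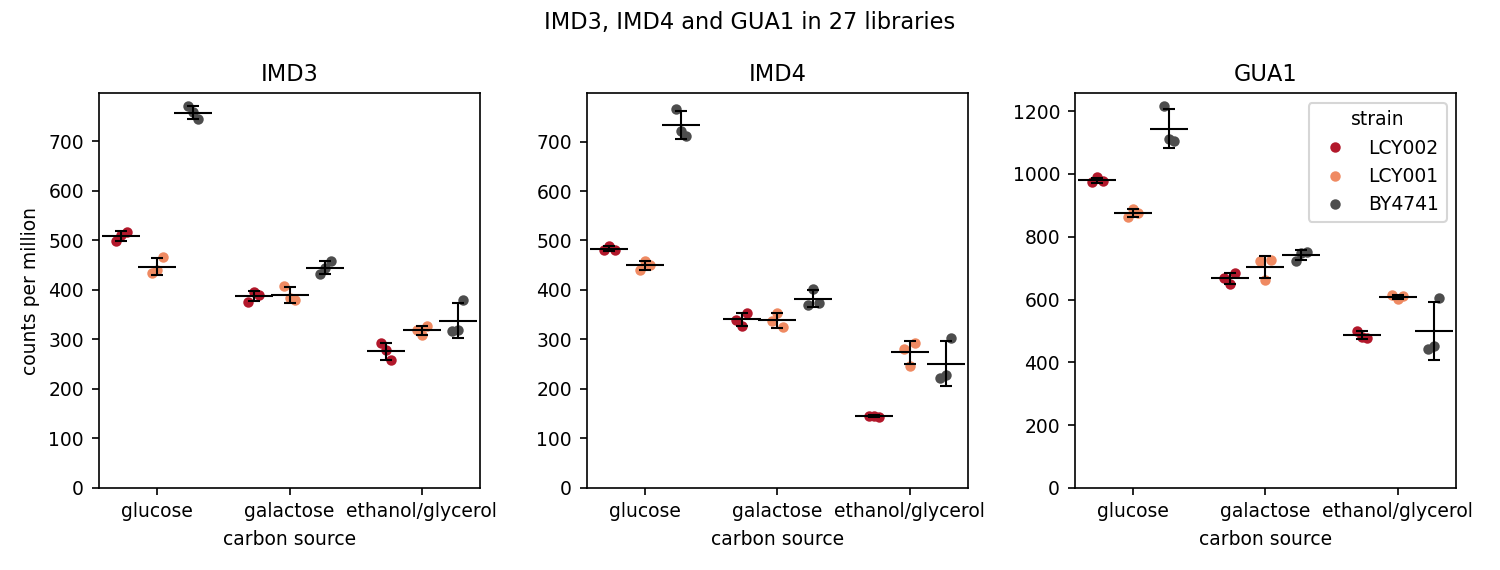
IMD3, IMD4 and GUA1 in each of the 27 libraries, in CPM, by carbon source and strain; points are libraries, and horizontal lines with bars are the mean ± SD of 3. BY4741 in glucose is the highest group for each gene, and LCY002 in ethanol/glycerol has the lowest mean, most clearly for IMD4 at 143 to 146 CPM.

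GUA1, which acts on the product of the IMD enzymes, differed least from BY4741 in glucose among the 4 genes. There it had 973, 989 and 979 CPM in LCY002. It had 863, 888 and 876 CPM in LCY001, against 1216, 1110 and 1106 CPM in BY4741. The order of the strains was that of IMD3 and IMD4, with an overlap of LCY002 and LCY001 in TPM, and LCY001 against BY4741 was -0.39 ± 0.07 on the log2 scale as a description.

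In galactose GUA1 had 667, 650 and 685 CPM in LCY002 and 723, 662 and 725 CPM in LCY001, against 722, 748 and 752 CPM in BY4741. None of the 3 strain differences passed the test, from LCY001 against BY4741 (-0.07 ± 0.07, edgeR adjusted p = 0.441) to LCY002 against BY4741 (-0.15 ± 0.07, adjusted p = 0.101). In ethanol/glycerol it had 501, 482 and 478 CPM in LCY002 and 614, 602 and 612 CPM in LCY001, against 442, 453 and 606 CPM in BY4741. LCY002 lay below LCY001 without overlap (-0.32 ± 0.07, adjusted p = 3.93e-04), and BY4741 overlapped both.

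With all libraries fitted, GUA1 was the one gene of the 4 called higher in a plasmid strain than in BY4741. Without replicate 3 of BY4741 in ethanol/glycerol, IMD4 was called higher in LCY001 as well (0.28 ± 0.06, edgeR adjusted p = 7.43e-04). For GUA1, LCY001 against BY4741 in ethanol/glycerol gave 0.28 ± 0.07 (edgeR adjusted p = 0.00975). The call was lost when replicate 1 or replicate 2 of BY4741 was left out, or when only these 6 libraries were fitted (adjusted p = 0.191), and the value was 0.44 (adjusted p = 5.35e-08) without replicate 3. LCY002 against BY4741 was -0.04 ± 0.07 (adjusted p = 0.651) and turned to 0.12 (adjusted p = 0.0267) without replicate 3, so its direction rests on that library.

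Counted over the 4 genes, strain calls can be read against those over all genes. In galactose, 2 of 4 were called lower in LCY001 than in BY4741, where 38.9% of all genes tested were called and 18.2% were called lower. LCY002 against BY4741 also gave 2 of 4 lower (37.8% and 18%), and LCY002 against LCY001 gave 1 of 4, IMD2, lower (38.2% and 18.1%). In ethanol/glycerol, 1 of 4 was called higher in LCY001 than in BY4741 (11.5% of all genes called, 6.59% higher). There 3 of 4 were called lower in LCY002 than in LCY001 (59.8% called, 30.4% lower), and 3 of 4 lower in LCY002 than in BY4741 (59.7% called, 31.5% lower). Without replicate 3 of BY4741 in ethanol/glycerol, LCY001 against BY4741 gave 2 of 4 higher (11% of all genes higher in that fit), and LCY002 against BY4741 gave 3 lower and 1 higher (28.9% lower and 26.4% higher). In glucose all 4 were lower in LCY001 than in BY4741, where 55.4% of all genes were called. That contrast chose the set, and nothing is read from the count.

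The make-up of the IMP dehydrogenase transcripts differed among groups. On the TPM scale, which is per length and so allows copies to be set side by side, IMD2 held 3.76% ± 0.20 of the summed TPM of IMD2, IMD3 and IMD4 in LCY002 in glucose, 6.58% ± 0.49 in LCY001 and 18.4% ± 0.12 in BY4741 (SD, n = 3 each). In galactose its share was 1.9% ± 0.13 in LCY002, 2.71% ± 0.14 in LCY001 and 3.86% ± 0.04 in BY4741. In ethanol/glycerol it was 0.685% ± 0.0085, 0.643% ± 0.0702 and 0.877% ± 0.228 in LCY002, LCY001 and BY4741. The BY4741 share in ethanol/glycerol was 0.752%, 0.74% and 1.14% in replicates 1, 2 and 3. IMD2 was thus a minor copy everywhere, and its share overlapped between LCY002 and LCY001 in ethanol/glycerol.

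IMD3 and IMD4 held the rest in near-equal parts in glucose, with 46.6% and 46.8% in LCY001 and 41.6% and 40.1% in BY4741. In LCY002 in ethanol/glycerol the parts were unequal, with 65.1% ± 1.21 for IMD3 and 34.2% ± 1.21 for IMD4, against 53.5% ± 1.46 and 45.8% ± 1.49 in LCY001 and 57.1% ± 1.84 and 42.1% ± 1.61 in BY4741 (SD, n = 3 each). The summed TPM was 548 ± 10.1 in LCY002, 551 ± 20.2 in LCY001 and 979 ± 4.73 in BY4741 in glucose. In galactose the sum was 432 ± 8.50 in LCY002, 481 ± 23.3 in LCY001 and 519 ± 1.53 in BY4741. Ethanol/glycerol gave sums of 267 ± 10.0 in LCY002, 383 ± 19.1 in LCY001 and 385 ± 42.7 in BY4741, where the libraries had 359, 361 and 434. The ratio of the summed TPM to the TPM of GUA1 was 1.05 in LCY002, 1.1 in LCY001 and 1.6 in BY4741 in glucose, and lay between 0.874 and 1.2 in the other 6 groups.

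**Figure D4:**
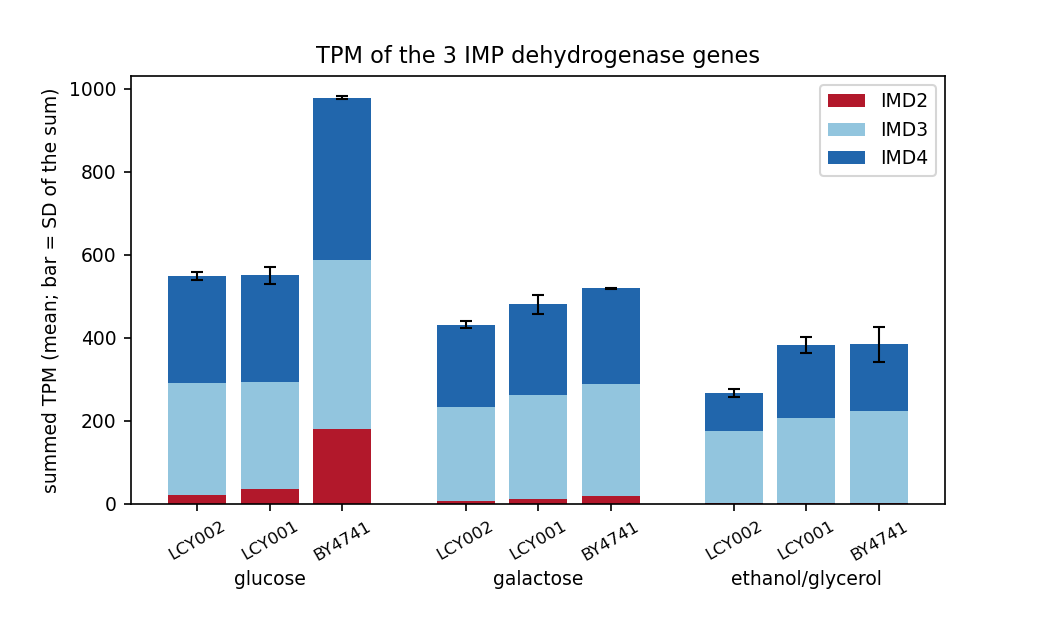
Mean TPM of IMD2, IMD3 and IMD4 stacked for each strain and carbon source; the bar is the SD of the sum over 3 libraries. The sum is highest in BY4741 in glucose, at 979, where IMD2 is a visible part, and lowest in LCY002 in ethanol/glycerol, at 267.

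Most genes of the steps that make IMP were higher in both plasmid strains than in BY4741. The list holds 9 genes of the route from PRPP to IMP, among them ADE4 for its first committed step and ADE16 and ADE17, paired isozymes for its last steps. In galactose, 8 of 9 were higher than in BY4741 and 1 was lower, both in LCY002 (median log2 fold change 1.06) and LCY001 (median 0.99), where the median over all genes was 0.00 and 19.8% and 20.7% of all genes were called higher. In ethanol/glycerol 8 of 9 were again higher in LCY002 (median 1.45; 28.2% of all genes higher) and in LCY001 (median 1.08; 6.59%). The same counts were found without replicate 3 of BY4741, with medians of 1.51 and 1.14.

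ADE17 led the list. It averaged 717 ± 15.6 CPM in LCY002 and 607 ± 96.3 CPM in LCY001, against 131 ± 18.6 CPM in BY4741 in galactose (SD, n = 3 each), a log2 fold change of 2.45 and 2.21 over BY4741. ADE4 averaged 230 ± 12.2 and 244 ± 39.7 CPM in LCY002 and LCY001, against 116 ± 4.02 CPM in BY4741 (0.99 and 1.08). ADE16 was the exception: at 292 ± 4.19, 314 ± 13.0 and 350 ± 5.83 CPM in LCY002, LCY001 and BY4741 it was lower in LCY002 (-0.26, edgeR adjusted p = 9.64e-07) and in LCY001 (-0.16, adjusted p = 6.41e-04). In glucose the 9 genes stood above BY4741 in LCY001, with a median of 0.60, as a description.

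**Figure D5:**
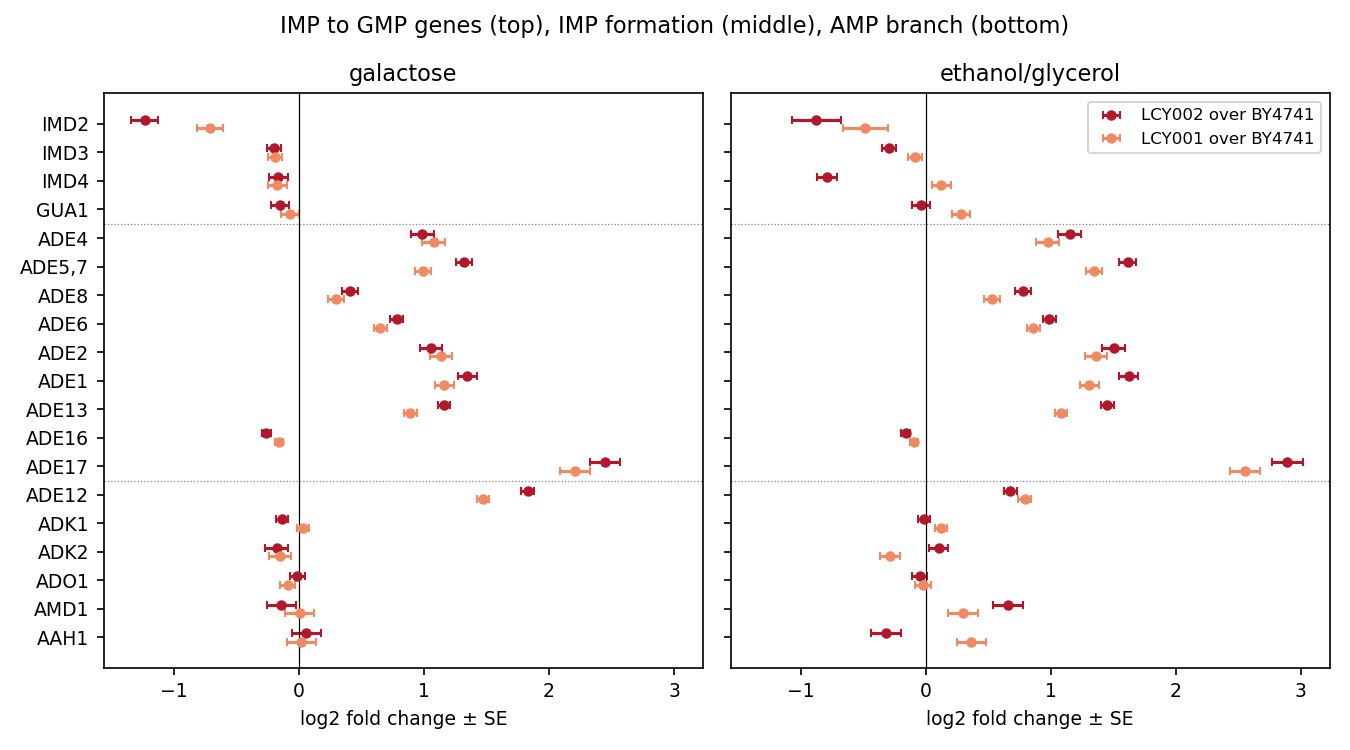
Log2 fold changes (± SE) of LCY002 and LCY001 over BY4741 in galactose and in ethanol/glycerol for IMD2, IMD3, IMD4 and GUA1 (top), 9 genes of IMP formation (middle) and 6 genes of the AMP branch (bottom). The IMP formation genes other than ADE16 lie to the right of 0 on both carbon sources, up to 2.89 for ADE17, while IMD2 lies to the left.

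The other branch from IMP leads to AMP and starts with ADE12, adenylosuccinate synthetase. ADE12 averaged 385 ± 5.09 CPM in LCY002 and 301 ± 15.2 CPM in LCY001, against 109 ± 2.37 CPM in BY4741 in galactose (SD, n = 3 each), and was higher than in BY4741 by 1.83 in LCY002 (edgeR adjusted p = 1.02e-20) and by 1.47 in LCY001 (adjusted p = 7.38e-18) on the log2 scale. Of the 6 genes of that list it was the one called higher in galactose in both strains, with 1 called lower in LCY002. The list's median was -0.07 in LCY002 and 0.01 in LCY001. Over all genes, 19.8% were called higher and 18% lower in LCY002, and 20.7% and 18.2% in LCY001. In ethanol/glycerol ADE12 was also higher, by 0.68 in LCY002 and 0.79 in LCY001 (0.74 and 0.86 without replicate 3 of BY4741). The gene entering the AMP branch and the gene entering the GMP branch thus differed in opposite directions from BY4741 in galactose, as far as IMD2 and IMD3 are concerned.

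Genes that salvage guanine or pass guanine nucleotides on did not move as a block. Of 8 such genes, 2 were higher and 5 lower than in BY4741 in galactose, both in LCY002 (median -0.22) and in LCY001 (median -0.17). Over all genes, 19.8% were called higher and 18% lower in LCY002, and 20.7% and 18.2% in LCY001. HPT1, which makes GMP and IMP from free bases, was higher by 0.78 in LCY002 and by 0.85 in LCY001. The other higher gene, SDT1, at 1.26 in LCY002 and 0.40 in LCY001, is known as a pyrimidine nucleotidase and so is not a gene of guanine use. GUK1, the kinase that turns GMP into GDP, was lower by 0.18 and 0.17. In ethanol/glycerol HPT1 was higher by 0.72 in LCY002 and by 0.97 in LCY001, or by 0.87 and 1.12 without replicate 3 of BY4741. GUK1 was lower in LCY002 (-0.12), a call that was lost without that library (-0.10, edgeR adjusted p = 0.0569), and was -0.01 in LCY001 (adjusted p = 0.906).

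Further lists bear on what feeds or shares the route. For comparison, 19.8% of all genes were called higher and 18% lower in LCY002 than in BY4741 in galactose. The shares for LCY001 were 20.7% and 18.2%. In galactose, 6 of 8 one-carbon genes were higher than in BY4741 in LCY002 (median 0.98) and LCY001 (median 0.75), with SHM2, a serine hydroxymethyltransferase, at 1.22 in both. Of 6 histidine synthesis genes other than HIS3, 5 were higher in each strain, with medians of 1.52 and 0.90 and HIS4 at 3.91 and 2.55. Of 5 PRPP synthetase genes, 0 were higher and 2 lower in LCY002 and 1 was higher and 1 lower in LCY001. All 3 purine and cytosine permease genes were higher in both strains, FCY2 by 0.78 and 0.63. BAS1, an activator of purine and histidine genes, was higher by 0.65 and 0.31, while its partner PHO2 was at 0.01 in LCY002 (adjusted p = 0.871) and lower by 0.16 in LCY001. Of 3 genes of GTP-consuming cofactor and sugar routes, 1 was higher and 1 lower in LCY002, and 0 were higher and 2 lower in LCY001. The higher one was FOL2, GTP cyclohydrolase I, by 0.40.

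Factors known to end or to place the short upstream transcripts of IMD2, such as Nrd1, Nab3 and Sen1, showed small strain differences in galactose: of 9, 1 was higher and 2 were lower in LCY002 than in BY4741, and 0 were higher and 1 lower in LCY001, with medians of 0.02 and -0.03. HRP1 was the one called lower in both, by 0.21 and 0.13. In ethanol/glycerol, 2 of the 9 were higher and 4 lower in LCY002 than in BY4741 (median -0.11; 28.2% and 31.5% of all genes). For LCY001 there, 0 were called (median -0.03), with 11.5% of all genes called. Within BY4741, all 9 were lower in ethanol/glycerol than in glucose (median -0.39, against 0.045 over all genes), as a description. Of the 20 ribosome biogenesis genes, 1 was lower in LCY002 and 5 were higher in LCY001 in galactose, with medians of -0.04 and 0.06. Over all genes in galactose, 19.8% were called higher and 18% lower in LCY002, and 20.7% and 18.2% in LCY001. In glucose the same list was lower in LCY001 than in BY4741 (median -0.45), as a description. Its part in the strain differences of IMD2 was not tested.

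In LCY002, most IMP formation genes and the ribosome biogenesis genes were lower than in glucose on both other carbon sources, as the IMD genes were. From galactose to ethanol/glycerol, most IMP formation genes were not called lower there, while the IMD genes were. Against glucose, 8 of 9 IMP formation genes and all 20 ribosome biogenesis genes were lower in galactose (medians -0.67 and -0.42), and the same numbers were lower in ethanol/glycerol (medians -0.55 and -1.11). Of all genes, 26.4% were called lower in galactose and 40.4% in ethanol/glycerol. In ethanol/glycerol against galactose, 20 of 20 ribosome biogenesis genes were lower in LCY002 and 17 of 20 in LCY001, while 1 of 9 and 2 of 9 IMP formation genes were lower. In BY4741, 18 of 20 and 7 of 9 were lower. The shares of all genes called lower were 40.4% in LCY002, 36.3% in LCY001 and 36% in BY4741. The change in strain difference between these 2 carbon sources was tested gene by gene. In LCY002 over BY4741, 7 of 9 IMP formation genes were called higher in ethanol/glycerol and 0 lower, with 44.7% of all genes called in either direction. In LCY001 over BY4741, 2 of 9 were called higher and 0 lower, near the 18.3% of all genes called in either direction.

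Neighbouring genes were read to see whether the region near the chromosome end moved with IMD2. Whether their sequences also occur elsewhere in the genome was not examined, so their counts may not belong to this region alone. PHO12, an acid phosphatase gene and the nearest listed gene on its upstream side, averaged 9.3, 9.2 and 8.97 CPM in LCY002, LCY001 and BY4741 in galactose, and none of the strain differences passed the test there (0.05 ± 0.13 for LCY002 against BY4741, edgeR adjusted p = 0.796). In ethanol/glycerol it was higher than in BY4741 in LCY002 (0.60 ± 0.12, adjusted p = 1.62e-04) and in LCY001 (0.40 ± 0.13, adjusted p = 0.0388), opposite in sign to IMD2. Without replicate 3 of BY4741 the first was 0.48 ± 0.13 (adjusted p = 0.00247) and the second lost its call (0.28 ± 0.13, adjusted p = 0.139). In glucose it averaged 11.3, 10.9 and 21.4 CPM in the same 3 strains, the direction of IMD2, as a description. YHR218W, on the side of the chromosome end, had 0 counts in all libraries, and YHR219W averaged between 46.8 and 70.1 CPM in the 9 groups.

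The genes whose 9 group means followed each member most closely, by Pearson r of log2 CPM among 5433 other genes, were GIM4 (0.992), BAR1 (0.991) and CDC33 (0.984) for IMD2. Pearson r takes no account of size: the group means of these 3 spanned 0.852, 1.89 and 1.03 on the log2 scale, against 6.63 for IMD2. IMD3 stood at place 18 for IMD2 (0.97). For IMD3 they were TMA16 (0.992), ECT1 (0.983) and RPL35B (0.98), for IMD4 RRB1 (0.992), ENP2 (0.99) and ELP3 (0.99), and for GUA1 LHP1 (0.997), URA6 (0.991) and RPS9B (0.99). The 9 points share their libraries and the glucose groups that chose IMD2, so these values describe likeness over the groups.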

How the data were processed

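RNA of 27 libraries was analysed. The deposited values are RSEM expected counts and TPM per gene, made by the authors; build R64 with RSEM 1.2.8, HISAT2 2.1.0 and Bowtie2 2.2.5 are named in the submitters' processing notes. Expected counts need not be whole and were rounded. Of 5995 IDs, 5980 matched the annotation and 15 did not. Whether libraries keep strand is not stated in the labels.

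Differences were tested with edgeR 4.0.16 in R 4.3.3 (quasi-likelihood F test, robust, TMM, filterByExpr, 9 group means, all 27 libraries), with Benjamini-Hochberg adjustment over 5692 genes per comparison and calls below 0.05. An SE is the log2 fold change divided by the square root of F. CPM are TMM-scaled, and TPM served to compare genes. Members, gene lists, comparisons and the rule for named genes (all 4 members, up to 4 called genes per list with the largest changes plus uncalled guanine and IMP genes, neighbours, the 3 most alike genes) were chosen with earlier results of these data known. Sequences are from RefSeq, build R64. Alternatives were other scalings, no filter, DESeq2 1.42.0, only the libraries compared, a replicate block, summed IMD counts and leaving out each library; list counts without replicate 3 of BY4741 in ethanol/glycerol were added after seeing the data.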

Additional observations from a re-analysis of the deposited data

Results flagged for a closer look

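Some strain differences were not the same on every carbon source, and these are listed for a closer look. IMD4 in LCY002 over LCY001 was lower in ethanol/glycerol than in galactose by -0.918 on the log2 scale (edgeR adjusted p = 4.92e-07), and in LCY002 over BY4741 by -0.623 (adjusted p = 5.93e-05). The same 2 tests were past the threshold without any single library of the groups involved, with values of -0.987 to -0.867 and of -0.704 to -0.464.

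GUA1 in LCY001 over BY4741 was higher in ethanol/glycerol than in galactose by 0.358 (adjusted p = 0.0145). Of the 4 genes, 1 was called in this difference, where 18.3% of all genes were called. In LCY002 over LCY001, IMD3 at -0.195 (adjusted p = 0.0441) and GUA1 at -0.247 (adjusted p = 0.0495) passed narrowly, with 43.6% of all genes called. Leaving out 1 library ended the call of IMD3 in 8 of 12 cases and that of GUA1 in 11 of 12.

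For 3 genes every LCY002 library lay above every LCY001 library in glucose and below every one in ethanol/glycerol on the TMM scale. In glucose the libraries overlapped for all 3 in TPM, and for IMD3 and IMD4 with total counts as the scale. The values were 0.187 and -0.204 for IMD3, 0.104 and -0.912 for IMD4, and 0.163 and -0.324 for GUA1, with glucose given first. The difference between these 2 carbon sources was not tested, since the LCY001 glucose libraries helped to choose the set. The ribosome biogenesis list had the same signs, with 19 of 20 genes higher in glucose and 20 of 20 lower in ethanol/glycerol, and its part was not tested.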

How the results depend on the processing

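Of 56 member results tested, 36 kept their direction and their side of the threshold under every alternative run, and 20 did not; the causes were not tested except where a left-out library shows them. All carbon source results of IMD2, IMD3, IMD4 and GUA1 that were tested, and the strain results of IMD2 in galactose, were among the 36. GE stands for ethanol/glycerol below, and values are log2 fold changes.

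For LCY002 over LCY001 in GE minus galactose, IMD3 lost its call with RLE factors (-0.192), scaling by total counts (-0.107) and the replicate block (-0.194), and GUA1 with RLE (-0.244), total counts (-0.158), TMM factors without the array genes (-0.244) and DESeq2 (-0.245). Total counts shifted the median of all genes by -0.137 for LCY002 against LCY001 in galactose, called IMD3 (-0.145) and GUA1 (-0.213) there, gave IMD4 -0.131, moved the count of genes called to 3309 from 2175, and took the share of calls that were higher to 17.7%. It called IMD4 (-0.256) and GUA1 (-0.239) for LCY002 against BY4741 in galactose, and gave IMD4 -0.002 for LCY002 against LCY001 in glucose. RLE and DESeq2 each gave -0.001 for IMD4 in LCY002 against LCY001 in galactose. DESeq2 called IMD2 in GE for LCY001 against BY4741 (-0.478, adjusted p = 0.0276) and LCY002 against LCY001 (-0.399, adjusted p = 0.0489), and IMD4 for LCY001 over BY4741 in GE minus galactose (0.302). Fitting only the libraries compared called IMD4 for LCY001 (-0.175) and LCY002 (-0.166) and GUA1 for LCY002 (-0.149) against BY4741 in galactose, lost GUA1 for LCY001 against BY4741 in GE (0.286) and its difference from galactose (0.36), and gave 257 genes instead of 655 and 650 instead of 1042 for these 2 contrasts.

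Leaving out 1 library gave, for LCY001 against BY4741 in GE, -0.645 to -0.094 for IMD2, -0.133 to 0.003 for IMD3, 0.042 to 0.282 for IMD4, 0.202 to 0.444 for GUA1 and 394 to 1030 genes called; the ends at -0.094, 0.003, 0.282, 0.444 and 1030 came without replicate 3 of BY4741. GUA1 for LCY002 against BY4741 in GE ran from -0.121 to 0.12. For LCY001 over BY4741 in GE minus galactose IMD2 ran from 0.066 to 0.617, IMD3 from 0.056 to 0.193 and IMD4 from 0.214 to 0.454, and for LCY002 over BY4741 IMD2 ran from 0.197 to 0.748 and GUA1 from 0.029 to 0.27, each highest and called without replicate 3 of BY4741 in GE. For LCY002 over LCY001 IMD3 ran from -0.238 to -0.148 and GUA1 from -0.27 to -0.205, and for LCY002 against LCY001 in galactose IMD3 ran from -0.029 to 0.024 and IMD4 from -0.023 to 0.038.

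Replicate numbers did not pair the libraries: the correlations of same-numbered deviations lay between -0.33 and 0.209, and in 0 of 18 comparisons were all above 0.1. Shares of IMD2, IMD3 and IMD4 from summed counts instead of TPM moved by less than the SD in all 27 cases. Depth limits IMD2 in GE, where it had 41 to 126 counts per library.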
